A study of Mus musculus with 6 samples.

Results

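Described here are 10 genes of fibroblast growth factor (FGF) and hepatocyte growth factor (HGF) signalling, followed in primary mouse myoblasts that did or did not express an active form of beta-catenin. They are the FGF receptors Fgfr1, Fgfr2, Fgfr3 and Fgfr4, the receptor-like Fgfrl1, the HGF receptor Met, and the inhibitors Spry1, Spry2, Spry4 and Spred1. They were taken by gene symbol from the platform annotation of the expression table, and that rule did not use their measured values. Earlier results of these data were known when the 10 genes were chosen. All 10 were found, with 1 probe set each, among 23279 named genes, and each symbol matched its Entrez number in the RefSeq gene table.

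FGF receptors are transmembrane tyrosine kinases that, once bound by an FGF and heparan sulphate, signal through the adaptor Frs2 and the Ras-MAPK cascade. In skeletal muscle FGF2 and HGF keep myoblasts dividing and hold back their differentiation, and HGF acting on Met is known to rouse quiescent satellite cells. Sprouty and Spred proteins are induced by the same cascade and inhibit it in turn, so that they act as its negative feedback. Beta-catenin is the transcriptional effector of canonical Wnt signalling and acts on DNA through TCF/LEF factors.

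The activated group was 3 cultures given 4-OH tamoxifen in ethanol, and the control group was 3 cultures given ethanol alone. All 6 cultures came from limb muscle of C57bl6N mice carrying Pax7-CreERT2, a tamoxifen-inducible Cre recombinase expressed from Pax7, together with Beta-cetenin-Exon3-loxP/+, that is, loxP sites around exon 3 of beta-catenin on a single allele, as spelled in the series record. Control cells therefore carried the same alleles without the drug, and an effect of the drug itself cannot be told apart from that of beta-catenin. Cre made from Pax7 recombines only in cells that express that gene, and the share of recombined cells was not given in the sources used here. Cells had grown for 5 passages in 20% FBS with bFGF, the FGF family ligand FGF2, at 2 ng/ml. They were then kept for 24 hours without that serum, in DMEM with 2% HS. RNA was thus taken from differentiating cells of both groups that had been expanded on an FGF. The labels call the cultures independent without naming the animals behind them, and the p-values here reflect no more than the variation among cultures. The animals' age is not given in the sources used here.

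Values are log2 expression per gene as deposited, so that a difference of 1 is a doubling, and the 6 arrays had medians between 4.04 and 4.36 with SDs between 1.72 and 2.12. Muscle identity was borne out by Myod1, the myogenic transcription factor (8.77 to 10.23 in activated and 8.64 to 9.67 in control cultures), and by the intermediate filament gene Des (10.30 to 11.31 in activated and 8.77 to 9.81 in control cultures). Pax7, the stem cell factor whose locus drives the Cre, was at 7.08 to 7.99 in activated and 7.77 to 8.39 in control cultures. The leukocyte marker Ptprc (2.38 to 2.75 in activated and 2.36 to 2.55 in control cultures) and the endothelial marker Pecam1 (2.52 to 2.84 in activated and 2.74 to 3.32 in control cultures) lay below the median of every array. Other markers of those cells lay above it on every array, namely the leukocyte genes Cd68 (5.08 to 6.66 in activated and 4.91 to 7.33 in control cultures), Fcer1g (4.13 to 4.40 in activated and 4.56 to 5.24 in control cultures) and Laptm5 (4.33 to 4.55 in activated and 4.79 to 5.05 in control cultures), and the endothelial gene Egfl7 (4.30 to 4.58 in activated and 4.47 to 5.02 in control cultures). Of 10 proliferation genes listed, 9 were measured and all 9 were lower on the activated side, with a list mean of 5.51 to 6.72 on activated arrays and 6.98 to 8.03 on control arrays. Of 10 skeletal muscle markers 8 were higher, with a list mean of 8.55 to 9.09 on activated arrays and 7.37 to 8.34 on control arrays. Ckm, the creatine kinase of mature fibres, was low, at 4.14 to 4.82 in activated and 4.53 to 4.88 in control cultures. Of 6 leukocyte markers 5 were lower, 4 of them with no overlap, with a list mean of 3.86 to 4.13 on activated arrays and 4.03 to 4.78 on control arrays. Of 7 endothelial markers 6 were lower, 1 with no overlap. Their list mean was 3.16 to 3.37 on activated arrays and 3.39 to 3.60 on control arrays. Over all genes 59.7% were lower, and 7.4% had every activated array below every control array. Of 6 smooth muscle and pericyte markers 2 were higher and 4 lower as deposited, all with overlap, but 4 were higher and 2 lower after quantile normalization and after cyclic loess, with a deposited list mean of 5.45 to 5.89 on activated arrays and 5.53 to 5.82 on control arrays. These shifts accompany every comparison below, and their part in the differences of the receptor and feedback genes was not tested.

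Set against control, 4 of the 10 genes were higher in activated cultures and 6 lower, where 40.3% of all genes were higher and 59.7% lower. Their median log2 difference was -0.16, and that of all genes was -0.084. Only Fgfr4, lower, and Fgfrl1, higher, had 3 activated arrays that lay wholly outside the range of the 3 control arrays, a separation shown by 12.8% of all genes. The same 2 genes had an unadjusted p under 0.05 in limma, as did 7.86% of all genes, and with 10 genes a count of 2 is not far from that share. After Benjamini-Hochberg adjustment over all genes 0 of the 10 passed 0.05 (limma, lowest adjusted p = 0.252), as did 0% of all genes. With the replicate number as a block, 0.133% of all genes and 0 of the 10 passed (lowest adjusted p = 0.0931), and again 2 of the 10 had an unadjusted p under 0.05, against 16.6% of all genes. Fewer cells expressing a gene and less RNA per cell cannot be told apart in these bulk samples.

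**Figure D1:**
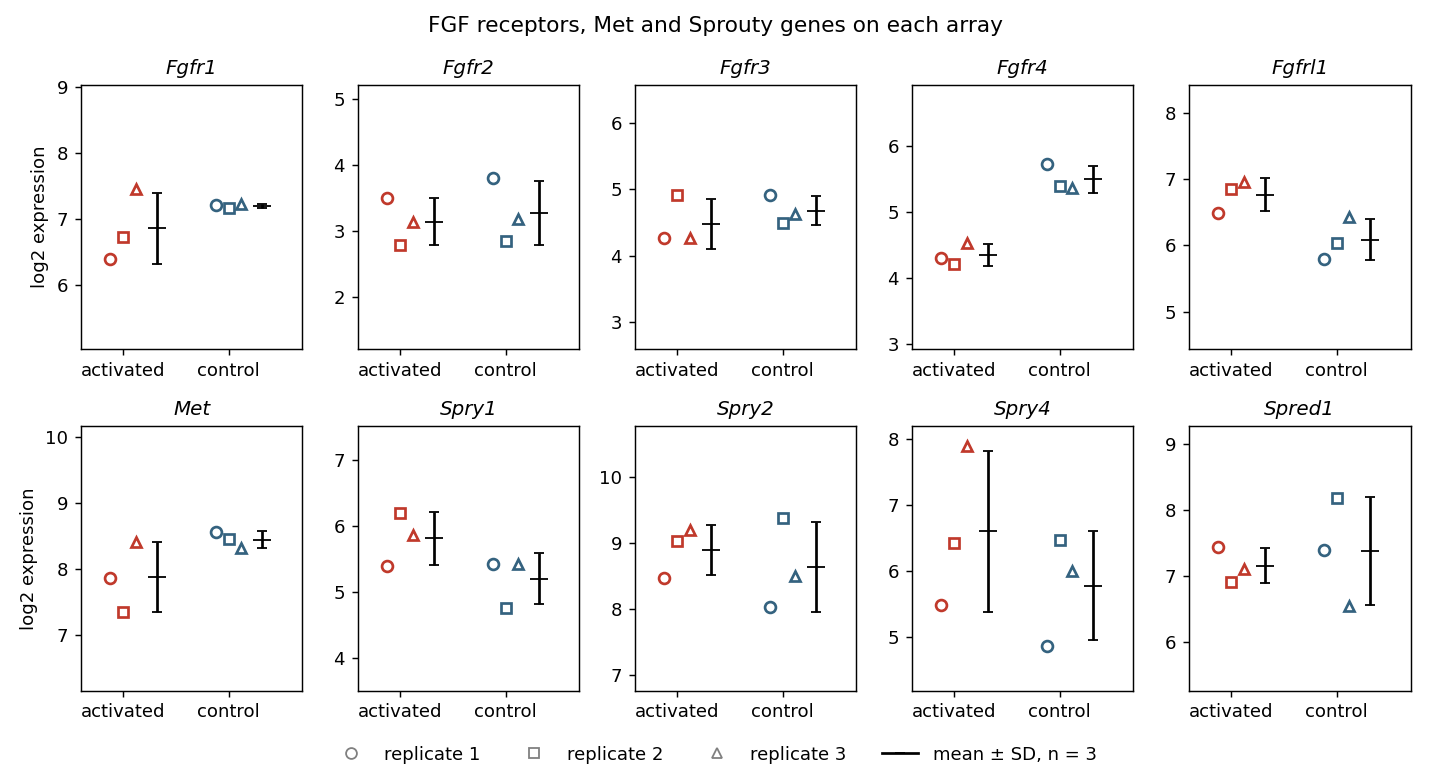
Log2 expression of each gene on the 6 arrays, with activated cultures in red and control cultures in blue, the replicate number as the symbol and the mean ± SD (n = 3) in black. Every panel spans 4 log2 units. Fgfr4 and Fgfrl1 are the genes whose groups do not overlap, and Spry4 has the widest scatter (SD 1.21 in activated and 0.82 in control cultures).

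Fgfr4 had the clearest difference of the 10. This receptor is the FGF receptor typical of myoblasts and of regenerating muscle. It was measured at 4.30, 4.20 and 4.52 in activated cultures 1, 2 and 3 and at 5.73, 5.39 and 5.36 in control cultures 1, 2 and 3. The activated arrays all lay below the control arrays, and the gap between the groups was wider than the spread within either. The means were 4.34 ± 0.16 in activated and 5.49 ± 0.20 in control cultures (SD, n = 3 each). The log2 difference was -1.15 ± 0.22 (SE; 95% interval -1.67 to -0.63), so Fgfr4 was 2.22-fold higher in control cultures. The adjusted p of Fgfr4 was 0.252 (limma), or 0.0931 when the replicate number was a block, neither under 0.05. Over 17 alternative settings the difference ran from -1.30 to -1.01, each time with an unadjusted p under 0.05 (limma). The adjusted p ran from 0.0571 to 0.920. The groups stayed apart after median centring, quantile normalization and cyclic loess. The settings that keep the deposited values or leave arrays out cannot bring in an overlap.

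Fgfrl1 differed in the opposite direction. It encodes a receptor-like protein that binds FGFs and heparin but lacks the tyrosine kinase domain of the other receptors. It was at 6.49, 6.86 and 6.96 in activated cultures and at 5.80, 6.04 and 6.43 in control cultures. The lowest activated array exceeded the highest control array by a narrow margin. The means were 6.77 ± 0.25 in activated and 6.09 ± 0.31 in control cultures (SD, n = 3 each). The log2 difference was 0.68 ± 0.26 (SE; 95% interval 0.079 to 1.28), or 1.60-fold (limma, adjusted p = 0.584). After repeated quantile normalization, which forces the arrays to 1 distribution, the difference was 0.46 and the groups overlapped. Over 17 alternative settings Fgfrl1 had an unadjusted p under 0.05 in 7 and no overlap in 14. Settings that keep the deposited values or leave arrays out cannot bring in an overlap. Of the other rescalings, median centring kept the groups apart, and cyclic loess (difference 0.49) gave overlap.

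The promoters of these 2 genes are shown because they were the ones whose groups separated, in opposite directions. Each is the RefSeq window of GRCm38.p6 from 250 bases before to 50 bases after the gene's start, 5′ to 3′ on the gene's strand. The Fgfr4 window is chr13:55152568-55152867 and the Fgfrl1 window is chr5:108693979-108694278, both on the plus strand. Capitals mark matches to 3 motifs searched on both strands, and no matches overlapped in either window. The motifs were CTTTGA, a form of the core of TCF/LEF sites, CATTCC, the core bound by TEAD factors, and CANNTG, the E-box bound by Myod1 and related factors. No other form of the TCF/LEF core was searched, so any such form is left unmarked. In mouse muscle cells Fgfr4 is known as a target of Myod1 acting with Tead2.
Fgfr4: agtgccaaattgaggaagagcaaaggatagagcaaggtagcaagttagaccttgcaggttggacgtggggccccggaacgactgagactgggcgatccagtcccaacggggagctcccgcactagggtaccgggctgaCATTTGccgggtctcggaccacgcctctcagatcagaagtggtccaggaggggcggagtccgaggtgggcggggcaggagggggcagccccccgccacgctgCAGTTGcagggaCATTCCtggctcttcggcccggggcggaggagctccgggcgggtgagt
Fgfrl1: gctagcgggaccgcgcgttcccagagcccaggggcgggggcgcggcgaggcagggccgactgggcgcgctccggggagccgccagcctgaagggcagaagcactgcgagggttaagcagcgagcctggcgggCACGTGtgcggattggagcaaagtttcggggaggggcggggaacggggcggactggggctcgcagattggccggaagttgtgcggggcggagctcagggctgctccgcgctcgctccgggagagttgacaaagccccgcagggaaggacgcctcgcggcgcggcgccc
The Fgfr4 window held CATTCC once, beginning at base 3 from the start, and E-box letters beginning 112 and 10 bases before it. The Fgfrl1 window held 1 E-box, beginning 118 bases before the start. CTTTGA was in neither window and in none of the 9 windows of the 8 genes with an entry (Fgfr2, Fgfr3 with 2 windows, Fgfr4, Fgfrl1, Met, Spry1, Spry2 and Spred1), while 16% of all 32851 promoter windows held it. CATTCC was in 2 of the 9, those of Fgfr4 and Spry1, and in 14.7% of all windows. E-box letters were in 7 of the 9, with none in the Spred1 window and in 1 of the Fgfr3 windows, and in 72.3% of all windows. These matches describe letters in a short window and say nothing of binding.

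The remaining receptors did not separate the groups. Fgfr1, which mediates much of the response of myoblasts to FGF2, was at 6.39, 6.73 and 7.45 in activated cultures and at 7.21, 7.17 and 7.22 in control cultures. The control arrays agreed closely, while activated cultures 1 and 2 lay below them and activated culture 3 above. The log2 difference was -0.34 ± 0.30 (SE; 95% interval -1.04 to 0.36; limma, adjusted p = 0.769). It was -0.64 without activated culture 3, -0.11 without activated culture 1 and -0.59 after quantile normalization.

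Fgfr2 and Fgfr3 showed small differences. Fgfr2 was at 3.50, 2.80 and 3.14 in activated cultures and at 3.81, 2.85 and 3.18 in control cultures, a difference of -0.13 ± 0.32 (SE; 95% interval -0.88 to 0.61). It was the only one of the 10 with a mean below 4, the floor tried as a filter on low values, and the sign of its difference changed with the scaling of the arrays (0.033 after quantile normalization). Fgfr3, a receptor best known from growing cartilage, was at 4.26, 4.92 and 4.26 in activated cultures and at 4.92, 4.50 and 4.62 in control cultures. The ranges of the groups overlapped, and the difference was -0.20 ± 0.27 (SE; 95% interval -0.82 to 0.43). Without activated culture 2 it was -0.41 with no overlap, without activated culture 1 or 3 it was -0.088, and without control culture 1 it was -0.077. Adjusted p-values were 0.906 for Fgfr2 and 0.834 for Fgfr3 (limma). The intervals of these genes are wide enough that moderate differences in either direction would have been missed.

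Whether Fgfr4 and Fgfr1 differed by unequal amounts was asked within each array, where a shift shared by the genes of an array drops out. The log2 value of Fgfr4 minus that of Fgfr1 was -2.09, -2.53 and -2.93 in activated cultures and -1.49, -1.78 and -1.86 in control cultures. These are differences between 2 probe sets and not ratios of transcript numbers. Every activated array lay below every control array, with means of -2.52 ± 0.42 in activated and -1.71 ± 0.20 in control cultures (SD, n = 3 each). The change of -0.81 had a two-sided exact permutation p of 0.1, which is the smallest that 3 against 3 can give. Taken as 3 pairs it had an exact p of 0.25, the smallest that 3 pairs can give, and after cyclic loess it was -0.50 (exact permutation p = 0.3).

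Met, the receptor tyrosine kinase for HGF, was at 7.86, 7.35 and 8.42 in activated cultures and at 8.56, 8.45 and 8.31 in control cultures. Activated cultures 1 and 2 lay below all control cultures and activated culture 3 lay within their range. The means were 7.88 ± 0.53 in activated and 8.44 ± 0.13 in control cultures (SD, n = 3 each), a log2 difference of -0.56 ± 0.30 (SE; 95% interval -1.27 to 0.14; limma, adjusted p = 0.693). The difference was -0.88 after quantile normalization, -0.94 after cyclic loess and -0.30 without activated culture 2.

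Hgf, the ligand of Met, showed a larger difference than any of the 10 genes themselves. It was at 3.78, 3.22 and 3.72 in activated cultures and at 5.83, 5.29 and 4.84 in control cultures. All activated arrays lay more than 1 log2 unit below all control arrays. The activated values were all below 4, the floor tried as a filter on low values. They were also below the medians of their arrays (4.25, 4.04 and 4.16 for activated cultures 1, 2 and 3). The log2 difference was -1.75 ± 0.31 (SE; 95% interval -2.48 to -1.02), so Hgf was 3.36-fold higher in control cultures, with an adjusted p of 0.232 in limma. Fibroblasts are a known source of HGF in muscle. Of 7 measured fibroblast markers 2 were higher and 5 lower. Among the lower, 2 had no overlap (Fbln1 and Cd34), where 7.4% of all genes had every activated array below every control array. The list median of -0.095 was close to that of all genes (-0.084). The tally turned to 4 higher and 3 lower after median centring and after cyclic loess. The surface marker Thy1 was higher by 1.17, with overlap between the groups (limma, adjusted p = 0.543). The list mean was 4.21 to 4.55 on activated arrays and 4.45 to 4.67 on control arrays. Pdgfra, a defining marker of muscle fibroblasts, was at 2.79 to 3.34 in activated and 2.70 to 3.35 in control cultures. The part of these cells in the Hgf difference was not tested.

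**Figure D2:**
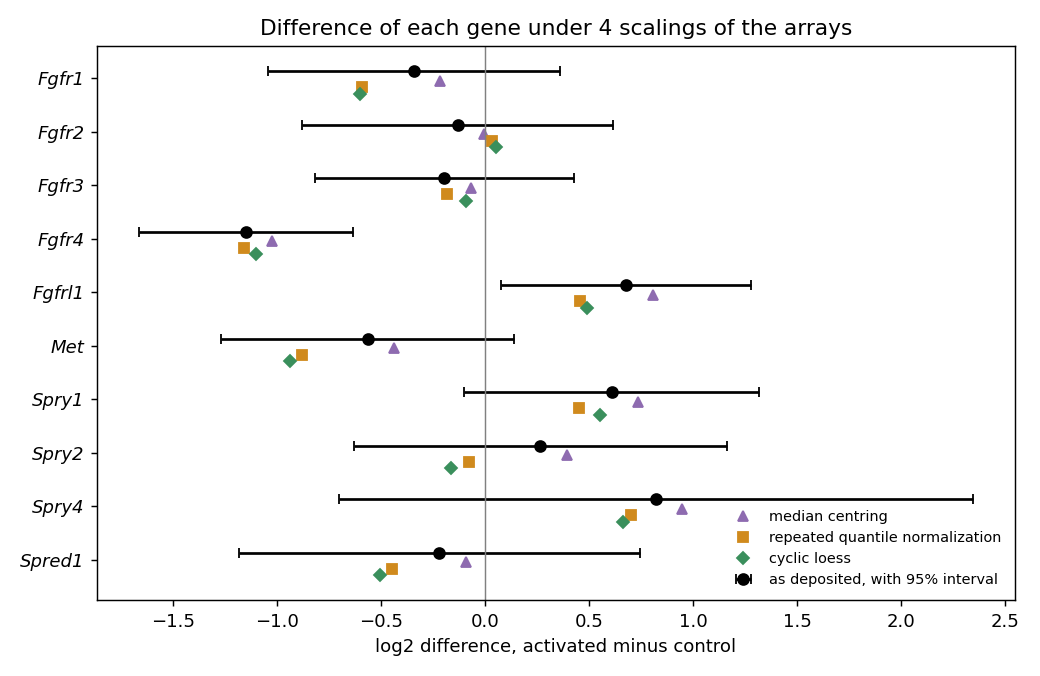
Log2 difference (activated minus control) of each of the 10 genes. Black points are the deposited values with limma's 95% interval, and coloured symbols are the differences after median centring, repeated quantile normalization and cyclic loess. Fgfr4 stays between -1.16 and -1.02, whereas Spry2 and Fgfr2 lie on different sides of 0 depending on the scaling.

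As deposited, the groups overlapped for each of the Sprouty genes, and none of these had an unadjusted p under 0.05 (limma). Spry1, which in mouse satellite cells is known to help them return to quiescence, was at 5.40, 6.20 and 5.86 in activated cultures and at 5.43, 4.77 and 5.43 in control cultures. Activated cultures 2 and 3 lay above every control culture and activated culture 1 just below the higher 2 of them. The log2 difference was 0.61 ± 0.30 (SE; 95% interval -0.10 to 1.32; limma, adjusted p = 0.677), and 0.39 without control culture 2. After median centring it was 0.74, with no overlap.

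Spry4 was at 5.49, 6.42 and 7.90 in activated cultures and at 4.87, 6.47 and 6.01 in control cultures. The means were 6.60 ± 1.21 in activated and 5.78 ± 0.82 in control cultures (SD, n = 3 each), so the difference of 0.82 ± 0.65 (SE; 95% interval -0.70 to 2.35; limma, adjusted p = 0.756) was within the scatter of the cultures. Activated culture 3 set much of it, since the difference was 0.18 without that culture. It was 0.37 without control culture 1 and 1.38 without activated culture 1.

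Spry2 was at 8.47, 9.02 and 9.19 in activated cultures and at 8.03, 9.37 and 8.49 in control cultures, a difference of 0.27 ± 0.38 (SE; 95% interval -0.63 to 1.16). Its sign turned after quantile normalization (-0.077) and after cyclic loess (-0.16). Spred1, a Sprouty-related inhibitor of Ras-MAPK signalling that acts with neurofibromin, was at 7.44, 6.92 and 7.11 in activated cultures and at 7.40, 8.18 and 6.55 in control cultures. The control cultures spread around the activated ones, and the difference was -0.22 ± 0.41 (SE; 95% interval -1.18 to 0.74), turning to 0.18 without control culture 2. The adjusted p was 0.843 for Spry2 and 0.880 for Spred1 (limma). The Sprouty and Spred genes thus showed no difference detectable with 3 arrays a group, and the wide intervals do not show that they were equal.

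Within numbered pairs of cultures, 3 of the 10 genes had the same sign in all 3 pairs, a smaller share than the 41.6% of all genes that did. Fgfr4 differed by -1.42, -1.18 and -0.84 in pairs 1, 2 and 3. Fgfrl1 differed by 0.68, 0.82 and 0.53. Fgfr2 differed by -0.31, -0.051 and -0.035, the last values close to 0. For Fgfr1 and Met pairs 1 and 2 were negative (-0.82 and -0.43 for Fgfr1, -0.70 and -1.10 for Met) and pair 3 was positive (0.23 and 0.11). Spry4 differed by 0.62, -0.042 and 1.89, so that its mean rested on pairs 1 and 3. Spry1 differed by -0.032, 1.43 and 0.43.

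**Figure D3:**
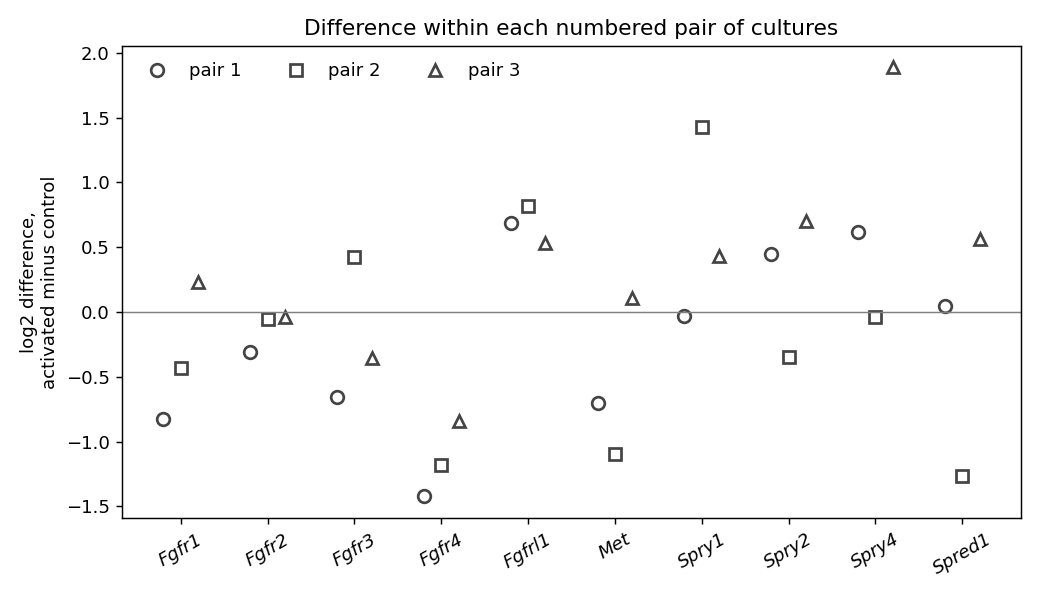
Log2 difference (activated minus control) within each pair of cultures that share a replicate number, for each of the 10 genes. Fgfr4 is below 0 and Fgfrl1 above 0 in every pair, while Fgfr1 and Met are below 0 in pairs 1 and 2 and above 0 in pair 3.

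Genes of the FGF family were mixed, and not all of them encode receptor ligands (Fgf11, Fgf12, Fgf13 and Fgf14 encode intracellular proteins). Of 22 measured FGF genes 9 were higher and 13 lower, with a median log2 difference of -0.060 against -0.084 over all genes. The counts turned to 13 higher and 9 lower after quantile normalization. Fgf5, a secreted ligand known from the hair cycle, was at 4.62, 4.28 and 3.56 in activated cultures and at 3.30, 3.53 and 2.91 in control cultures, with no overlap (log2 difference 0.91 ± 0.33, SE; limma, adjusted p = 0.561). Without the block it was the only FGF gene with an unadjusted p under 0.05, a level that 4.44% of all genes reached as higher ones. With the block 3 of the 22 had one, Fgf5, Fgf13 and Fgf21, against 16.6% of all genes. Fgf13, which encodes an intracellular FGF-like protein rather than a receptor ligand, was at 6.59, 6.52 and 4.66 in activated cultures and at 4.95, 5.18 and 3.27 in control cultures. The groups overlapped, yet each activated culture exceeded the control culture of its number (log2 difference 1.46 ± 0.67, SE; limma, adjusted p = 0.648, and 0.0643 with the replicate block). Without control culture 3 it was 0.86. Fgf22 and Fgf3 differed by -0.54 and -0.50, and without control culture 1 Fgf22 was at -0.31 and without activated culture 2 Fgf3 was at -0.24. Over all arrays the means of Fgf5 and Fgf3 were below 4 (3.70 and 3.80).

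Of 9 measured genes listed for HGF and its activation 9 were lower, with a median of -0.27, where 59.7% of all genes were lower. The list also holds Mst1 (-0.27) and Mst1r (-0.21), the genes of a related ligand and its receptor and not of HGF activation. Of the 9 genes 1, Hgf, had an unadjusted p under 0.05 (limma) with or without the block. Without the block 3.42% of all genes reached that level as lower ones, and with it 16.6% did in either direction. After quantile normalization 8 were lower, with a median of -0.14. Hgfac, a protease that activates HGF, differed by -0.62 ± 0.32 (SE) with no overlap, and by -0.28 without control culture 3. The protease inhibitor Spint2 differed by -0.37 (-0.20 after quantile normalization) and the membrane protease St14 by -0.23 (-0.046 after quantile normalization). Over all arrays the means of Spint2 and St14 were below 4 (3.97 and 3.31).

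Among 22 measured co-receptor and heparan sulphate genes 13 were higher and 9 lower, with a median of 0.060 (11 of each, and -0.019, after quantile normalization, and 9 higher and 13 lower after cyclic loess). Gpc1, a cell surface heparan sulphate proteoglycan, was at 7.44, 8.67 and 7.48 in activated cultures and at 6.64, 7.20 and 5.998 in control cultures, with no overlap (log2 difference 1.25 ± 0.44, SE; limma, adjusted p = 0.544). Without the block it was the only one of the 22 with an unadjusted p under 0.05, against 7.86% of all genes. With the block 4 of the 22 had one, Gpc1, Sdc2, Hspg2 and Hs6st1, against 16.6% of all genes. The proteoglycans Sdc2 and Gpc4 differed by 1.34 ± 0.62 and 1.24 ± 0.68 (SE), values that were 0.69 and 0.46 without control culture 3 and 2.04 and 1.95 without control culture 2. Gpc6 differed by -0.58 and by -0.92 without activated culture 3.

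The tally of genes between receptor and ERK depended on the scaling. Of 20 measured adaptor and Ras-MAPK genes 14 were higher and 6 lower as deposited, with a median of 0.27, but the counts were 10 and 10 with a median of 0.031 after quantile normalization. An unadjusted p under 0.05 (limma) was found for 5 of the 20 after quantile normalization and for 4 after cyclic loess. Of all 23279 genes 1770 and 1843 had one in those settings. Gab2, a docking protein that recruits the phosphatase Shp2, was at 7.43, 7.06 and 7.29 in activated cultures and at 6.07, 6.49 and 6.41 in control cultures. The activated arrays lay above the control arrays throughout (log2 difference 0.93 ± 0.23, SE; limma, adjusted p = 0.341). The related docking protein Gab1, which binds Met directly, was at 5.24, 5.16 and 5.03 in activated cultures and at 4.20, 4.74 and 4.19 in control cultures, again without overlap (0.77 ± 0.24, SE; adjusted p = 0.475 in limma). The adaptor Crkl differed by 1.08 ± 0.34 and the Ras GTPase-activating gene Rasa1 by -0.95 ± 0.38 (SE; -1.44 after cyclic loess). An unadjusted p under 0.05 was found for 5 of the 20, of which 4 were higher, where 7.86% of all genes had one (4.44% as higher and 3.42% as lower genes). With the block it was again 5 of the 20, all higher, with Nras in place of Rasa1, against 16.6% of all genes. After adjustment 0 passed in either fit (limma).

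Feedback inhibitors other than the Sprouty genes and Spred1 were also mixed. Of 11 measured 7 were higher and 4 lower, with a median of 0.16 (0.0045 after quantile normalization and -0.063 after cyclic loess). Dusp5, a nuclear phosphatase that inactivates ERK and is induced by it, was at 4.25, 4.66 and 5.84 in activated cultures and at 5.93, 6.20 and 6.28 in control cultures, with no overlap (log2 difference -1.22 ± 0.41, SE; limma, adjusted p = 0.512). Without the block it was the only one of the 11 with an unadjusted p under 0.05, against 7.86% of all genes. With the block 3 had one, Dusp5, Flrt3 and Errfi1, against 16.6% of all genes. The membrane protein Flrt3 differed by 1.15 ± 0.55 (SE) and by 0.49 without activated culture 3, and Lrig1 by 0.46 and by 0.28 without activated culture 1. Errfi1, an inhibitor of ErbB receptors, differed by -0.74 and by -0.22 without activated culture 1.

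Of 13 ERK response genes 8 were higher and 5 lower, with a median of 0.23 (0.19 after quantile normalization). The immediate early transcription factor Egr1 was at 6.83, 7.65 and 6.72 in activated cultures and at 6.15, 6.16 and 5.85 in control cultures, with no overlap (log2 difference 1.02 ± 0.30, SE; limma, adjusted p = 0.433). Junb, another immediate early gene, was at 6.60, 7.06 and 7.08 in activated cultures and at 5.89, 6.26 and 6.43 in control cultures, also with no overlap (0.72 ± 0.25, SE; adjusted p = 0.548 in limma). The ETS factors Etv1 and Etv4, which are known to follow FGF signalling, differed the other way, by -0.70 ± 0.30 and -1.07 ± 0.50 (SE), with overlap between the groups. The Etv4 difference was -0.54 without control culture 3, and its pairs differed by -0.77, -0.89 and -1.55. In this list 2 of 13 genes, Egr1 and Junb, had an unadjusted p under 0.05 without the block, against 7.86% of all genes. With the block it was 4 of 13, Etv1 and Etv4 besides these, against 16.6% of all genes. After adjustment 0 passed in either fit (limma).

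**Figure D4:**
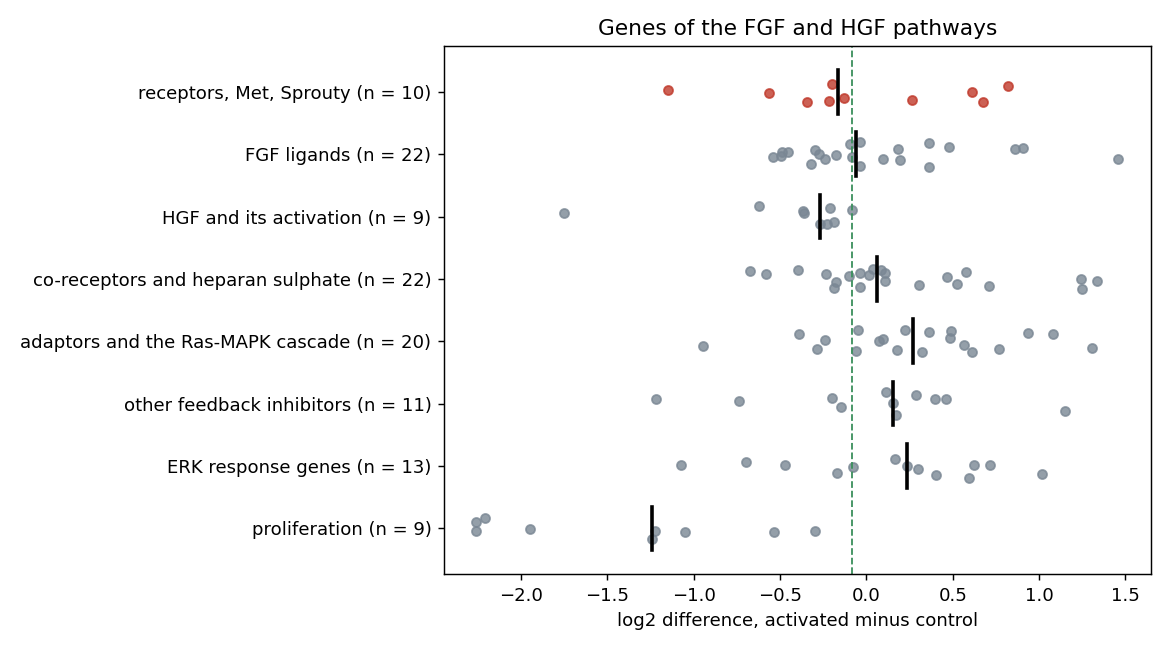
Log2 differences (activated minus control) of the 10 genes, in red, and of the genes of 7 related lists, in grey, 1 point per gene. Black bars are list medians and the green dashed line is the median of all genes (-0.084). The proliferation list lies wholly below 0, with a median of -1.24, and Hgf is the point at -1.75.

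The genes whose profile over the 6 arrays was most like that of a given gene were found by the root mean square distance between log2 values centred on each gene's mean. For Fgfr4 they were Gcnt4, Gm2788 and Ulbp1, at distances of 0.14, 0.15 and 0.15. For Fgfrl1 they were Junb, Pbxip1 and Washc1, at distances of 0.073, 0.083 and 0.093, and Junb is among the ERK response genes described above. For Spry1 they were Nr2c2ap, Pla1a and Ppp2r5b, at distances of 0.15, 0.16 and 0.16. With 6 arrays and 23279 genes near matches of this kind are expected in number, and the distances are a description only.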

How the data were processed

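The series is 6 one-colour Affymetrix whole-transcript arrays, each from 100 ng of total RNA per the labels' protocols. The values are log2 expression as deposited. The submitters' processing notes name RMA and Partek without saying how either was run. The sources used here give no array design, build or detection calls. Of 24479 probe sets 23281 had 1 gene symbol in the platform annotation and 1198 had none; for 2 symbols with several probe sets the brightest was used. limma 3.58.1 in R 4.3.3 fitted group as the only term to all 23279 genes, with two-sided moderated tests, Benjamini-Hochberg adjustment and no filter on low values. The fit was run on simulated data with added differences and independent noise between arrays. The real arrays correlated within replicate numbers, so this run checks the code and not the power to find small differences here.

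Deviations from the group means correlated at 0.380, 0.487 and 0.450 within replicate numbers 1, 2 and 3, all above 0.1, so the numbers in the sample titles were taken to pair the arrays; a shared order of spread can also give such correlations. The fit with the number as a block is an alternative. The others were median centring, quantile normalization, cyclic loess, leaving out genes with a mean under 4, a variance trend, array weights, and leaving out each array or pair. The 10 genes, the gene lists and the tests were chosen with earlier results of these data known. The text names all 10 genes, up to 4 genes per list by smallest p, and 3 like genes for each of the 3 genes with the smallest p. Fgf21, Hspg2, Hs6st1 and Nras are named besides because their unadjusted p was under 0.05 in limma with the block. Fbln1, Cd34, Cd68, Pdgfra, Ptprc, Pecam1, Myod1, Des, Ckm and Pax7 are named as markers. Mst1, Mst1r, Fgf11, Fgf12 and Fgf14 are named to describe what their lists hold. The promoter windows printed were chosen after the values were seen. The number of arrays limits precision.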

Additional observations from a re-analysis of the deposited data

How the results depend on the processing

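Of the 10 genes, Fgfr1, Fgfr4, Fgfrl1, Met, Spry1 and Spry4 kept their sign under all 17 alternatives run, and none of the 10 passed an adjusted p of 0.05 in any of them (limma). Fgfr2 turned to 0.033 after quantile normalization (with or without the replicate block), to 0.053 after cyclic loess, to 0.13 without control replicate 1 and to 0.043 without activated replicate 2 (without single arrays it ran from -0.35 to 0.13). Spry2 turned to -0.077 after quantile normalization (with or without the block), to -0.16 after cyclic loess and to -0.035 without control replicate 1 (-0.035 to 0.64 without single arrays). Spred1 turned to 0.18 without control replicate 2 (-0.63 to 0.18 without single arrays) and to 0.30 with the block without replicate 2, and Fgfr3 to 0.032 with the block without replicate 1. Median centring moved the median difference of all genes from -0.084 to 0.043, and 71% of genes with an unadjusted p under 0.05 were then higher, against 56.5% as deposited.

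The count of all genes past the test was 31 with the replicate block, 0 with the block after quantile normalization, 0 to 28 when single arrays were left out and 0 to 501 with the block when pairs were left out. The count of all genes with an unadjusted p under 0.05 was 3875 with the block and 3201 with the block after quantile normalization, 907 to 3066 without single arrays and 2787, 2822 and 3528 with the block without single pairs, against 1830. Of the 23279 genes 1854 had one after median centring, 1770 after quantile normalization and 1843 after cyclic loess (limma). Genes of the 10 with an unadjusted p under 0.05 numbered 3 after median centring (Fgfr4, Fgfrl1 and Spry1) and 2 after quantile normalization and after cyclic loess (Fgfr4 and Met in both, without Fgfrl1), 3 with the block after quantile normalization, 1 with low genes left out (Fgfr4) and 1 with a variance trend (Fgfr4), 1 to 3 without single arrays and 2 to 4 with the block without single pairs. Those whose groups do not overlap numbered 3 after median centring (Spry1 besides Fgfr4 and Fgfrl1), 1 after quantile normalization and 1 after cyclic loess. Without single arrays they numbered 2 to 4, and the 4 without activated replicate 3 were Fgfr1, Fgfr4, Fgfrl1 and Met. Leaving an array out can only add to this count. The share of all genes without overlap was not counted in these settings. Fgfr4 minus Fgfr1 ran from -1.02 to -0.60 without single arrays. The cause of these changes was not tested. The block changed no call among the 10 genes. The checks of the up to 4 genes named per pathway list by smallest p were chosen after seeing the data, and each kept its sign. In 8 of these checks a gene passed an adjusted p of 0.05 (limma), which none of them did in the main fit.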

Other observations

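Some deposited values recur to every digit between arrays. Fgfr3 had the same value in activated cultures 1 and 3 (4.26) and the same value in activated culture 2 and control culture 1 (4.92). Spry1 had the same value in control cultures 1 and 3 (5.43). Such a repeat occurred in 441 of 23279 genes (1.89%) and in 2 of the 10 genes described here. The fit treats the repeated values as separate measurements.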
